A study of Rattus norvegicus with 18 samples.

Results

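Macrophages of the rat kidney cortex were followed through 10 genes, the receptor Csf1r, its ligands Csf1 and Il34, and the markers Mrc1, Clec10a, Gpnmb, Lyz2, Cd68, Cd163 and Adgre1. The genes were taken by symbol from a table of normalised read counts per gene, where all 10 were found among 18420 gene rows, and all 10 passed the filter on low values (at least 10 normalised reads in at least 6 libraries). Messenger RNA of kidney cortex was sequenced in 3 groups of 6 libraries from Zucker diabetic fatty (ZDF) rats, which become obese and diabetic when both copies of their leptin receptor gene carry the mutation called fa. The RYGB group was ZDF fa/fa, labelled diabetic, and had undergone Roux-en-Y gastric bypass, surgery that leaves a small stomach pouch and joins it to the jejunum. The disease group was ZDF fa/fa, labelled diabetic and disease control, without a named operation, so bypass and the act of surgery cannot be told apart here. The healthy control group was lean, non-diabetic ZDF fa/+, and thus carried 1 fa allele. The study asked what diabetic kidney disease and gastric bypass do to the transcripts of the kidney.

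Resident macrophages of the kidney live around tubules and vessels and depend on signals through the receptor tyrosine kinase Csf1r. Csf1 is made by many cells, among them tubule epithelium and endothelium, and Il34 binds the same receptor and is made by injured tubule cells in the mouse. Macrophages that scavenge glycoproteins or take up lipid and cell debris carry surface lectins and lysosomal proteins, which are read here through Mrc1, Clec10a and Gpnmb. In bulk RNA, fewer macrophages, less of a transcript per macrophage and a change in other cells that make the transcript cannot be told apart.

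The bypass cortex held less of 3 of the 7 markers than the diabetic cortex without bypass: Mrc1 fell to 0.27 of the disease level, Clec10a to 0.32 and Gpnmb to 0.35. Clec10a and Gpnmb were also higher in disease than in healthy control, whereas Mrc1 in RYGB lay below healthy control as well. Lysozyme Lyz2 rose against healthy control both in disease and in RYGB. Il34 was higher in RYGB than in healthy control. Cd68, Cd163, Adgre1, Csf1r and Csf1 passed the test in no comparison.

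Library depth was 12470525 to 42713246 reads in genes in RYGB, 8157977 to 37142922 in disease and 8116638 to 34169198 in healthy control. The shallowest libraries were healthy control replicate 4 and disease replicate 1. The proximal tubule markers Slc34a1, a phosphate transporter, and Aqp1, a water channel, had mean levels of 76259 and 34136 normalised reads over the 18 libraries, and all 11 proximal tubule markers in the table were detected in each group, which fits the cortex label. Levels are normalised reads, that is counted reads divided by the size factor of the library. They compare libraries and not genes, since no gene lengths entered. Error is the SD over n = 6 libraries per group, and a fold change is a difference in log2(value + 1) ± its standard error. A gene is called where limma's adjusted p is below 0.05.

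**Figure D1:**
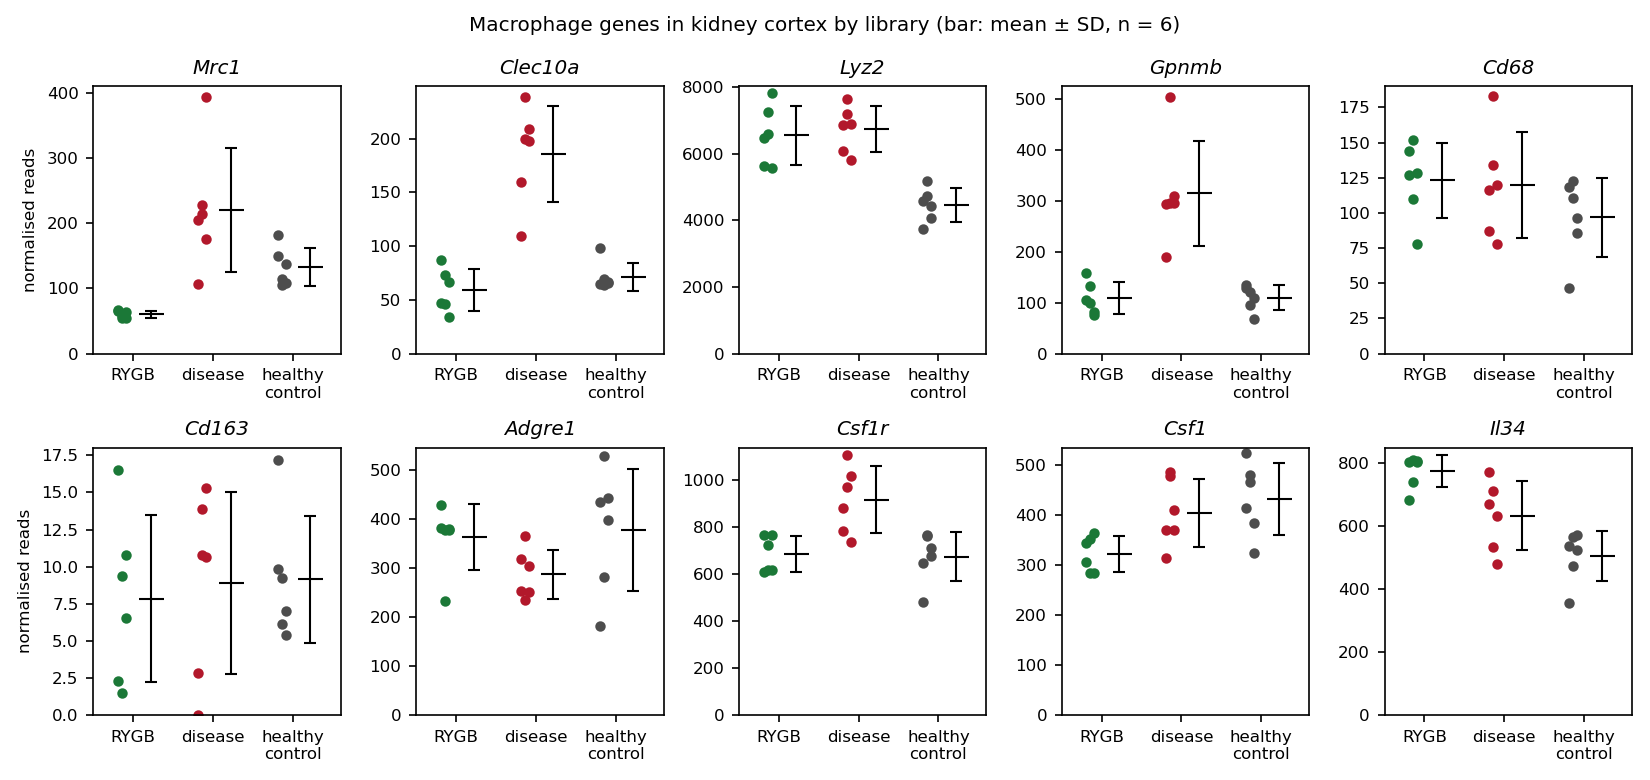
Each panel shows 1 gene, with normalised reads on the vertical axis from 0, points for the 6 libraries of each group in the order RYGB, disease and healthy control, and a bar with whiskers for the mean ± SD. In Mrc1, Clec10a and Gpnmb every RYGB point lies below every disease point, and in Lyz2 every RYGB and disease point lies above every healthy control point.

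In RYGB against disease 3 of the 10 genes were called, each of them lower. Over all 13988 genes tested, 3.95% were called in this comparison, 1.84% as higher and 2.1% as lower. In disease against healthy control 3 of the 10 were called, each of them higher, beside 1.61% of all genes called, 0.579% as higher and 1.03% as lower. In RYGB against healthy control 2 rose and 1 fell, beside 4.44% of all genes called, 2.46% as higher and 1.98% as lower. At an unadjusted p below 0.05, given as a description, there were 6 of the 10 genes in RYGB against disease (1 higher, 5 lower), 6 in disease against healthy control (all higher) and 4 in RYGB against healthy control (2 higher, 2 lower), beside 20.7%, 11.1% and 26.2% of all genes tested in these comparisons. The median fold change of the 10 genes was -0.18 in RYGB against disease, 0.38 in disease against healthy control and -0.01 in RYGB against healthy control, beside medians of -0.0009, 0.0016 and -0.0128 over all genes tested. The 3 comparisons share libraries in pairs, so a gene that stood high in the disease libraries enters 2 of them with opposite sign.

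Mrc1 encodes the mannose receptor CD206, an endocytic lectin of tissue macrophages that some endothelial cells also carry. It had 54.0, 60.7 and 67.2 normalised reads (lowest, median, highest) in RYGB, 107, 209 and 394 in disease, and 106, 126 and 182 in healthy control. All 6 RYGB libraries lay below all 12 others, and they were close together: the SD was 9.24% of the mean in RYGB, 43.1% in disease and 22.3% in healthy control. The fold change of RYGB against disease was -1.75 ± 0.22 (adjusted p = 0.000334), with means of 60.3 ± 5.57 and 221 ± 95.1. RYGB against healthy control, whose mean was 133 ± 29.6, gave -1.10 ± 0.22 (adjusted p = 0.0091).

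Disease and healthy control overlapped in Mrc1, and their difference of 0.65 ± 0.22 was not called (adjusted p = 0.208). The lowest disease library was replicate 1, the shallowest of its group. Without it the difference was called (adjusted p = 0.031), as it was without both shallowest libraries (0.0115) and by DESeq2 on recovered reads (0.0301). Over all alternatives for this difference the adjusted p ran between 0.0115 and 0.41. The highest disease library, replicate 6 with 394, was not the highest of its group in Clec10a or Gpnmb.

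Clec10a encodes a galactose-binding lectin of macrophages and dendritic cells. Its levels were 33.9, 57.2 and 87.1 in RYGB, 110, 199 and 239 in disease, and 64.2, 66.1 and 98.1 in healthy control. Every disease library was above every library of the other groups, and RYGB and healthy control overlapped. The means were 59.2 ± 19.96 in RYGB, 186 ± 45.1 in disease and 71.5 ± 13.2 in healthy control. The fold change was -1.66 ± 0.22 for RYGB against disease (adjusted p = 0.000425) and 1.34 ± 0.22 for disease against healthy control (adjusted p = 0.0024). RYGB against healthy control was not called (-0.32, 95% interval -0.78 to 0.14, adjusted p = 0.351).

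Gpnmb encodes a membrane glycoprotein of lysosome-rich macrophages, which in the mouse is induced by transcription factors of the MITF family. It had 76.7, 102 and 159 normalised reads in RYGB, 189, 296 and 504 in disease, and 68.1, 115 and 135 in healthy control. As in Clec10a, the disease libraries stood apart and the other groups overlapped. The fold change was -1.51 ± 0.22 for RYGB against disease (adjusted p = 0.000779) and 1.49 ± 0.22 for disease against healthy control (adjusted p = 0.000913). Between RYGB (109 ± 31.5) and healthy control (109 ± 24.7) it was -0.02, with a 95% interval of -0.48 to 0.44 (adjusted p = 0.961). These 3 falls in RYGB were also the cases in which the libraries of both groups did not overlap, beside 2.6% of all genes tested whose libraries did not overlap, 1.12% higher and 1.47% lower in RYGB. For disease against healthy control the genes whose libraries did not overlap were Clec10a, Gpnmb and Lyz2, all higher in disease, beside 1.24% of all genes tested, 0.458% higher and 0.786% lower.

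The promoters of Mrc1 and Gpnmb are shown because both genes fell in RYGB and 1 of them holds the MITF-family motif. The windows run from 250 bases before to 50 from the start site in RefSeq's GRCr8 assembly, Mrc1 at chr17:82157475-82157774 and Gpnmb at chr4:79340878-79341177, both on the plus strand. Capitals mark GAGGAA, the core of the PU.1 motif, and the M-box TCACATGA, each searched on both strands, so that TTCCTC marks GAGGAA on the minus strand. No match overlapped another.
Mrc1: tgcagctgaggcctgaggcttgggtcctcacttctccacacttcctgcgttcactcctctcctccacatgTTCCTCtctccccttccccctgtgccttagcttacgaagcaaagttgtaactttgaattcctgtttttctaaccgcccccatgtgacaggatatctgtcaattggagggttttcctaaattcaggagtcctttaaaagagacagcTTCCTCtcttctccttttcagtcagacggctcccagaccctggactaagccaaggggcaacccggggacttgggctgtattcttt
Gpnmb: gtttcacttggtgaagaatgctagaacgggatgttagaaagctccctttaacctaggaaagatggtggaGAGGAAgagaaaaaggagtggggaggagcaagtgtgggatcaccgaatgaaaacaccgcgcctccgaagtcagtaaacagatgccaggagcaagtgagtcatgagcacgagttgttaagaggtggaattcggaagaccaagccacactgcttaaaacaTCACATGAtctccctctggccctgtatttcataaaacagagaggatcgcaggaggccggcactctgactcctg
GAGGAA or its complement begins at positions -180 and -35 in Mrc1 and at -181 in Gpnmb, counted from the start site, and the M-box begins at -23 in Gpnmb. RefSeq's table held promoters for 7 of the 10 genes, the others being Clec10a, Csf1 and Il34. GAGGAA was in 6 of these 7 (in Lyz2 at -46, in Cd68 at -27 and 5, in Adgre1 at -207, in Csf1r at -229 and -95, and not in the Cd163 window), and in 27.6% of all 33469 promoters of the same length. The M-box was in 1 of the 7 and in 1.162% of all. These are matches of letters and were not tested for binding. Of the MITF family, Mitf averaged 226 ± 33.8 in RYGB, 261 ± 93.3 in disease and 304 ± 84.9 in healthy control. In the same order Tfeb averaged 933 ± 145, 767 ± 192 and 661 ± 115, and Tfe3 438 ± 44.6, 370 ± 41.7 and 360 ± 55.5. None of them was called or stood highest in disease, where Gpnmb did, and a link to Gpnmb was not tested.

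Lyz2 encodes lysozyme, an antibacterial enzyme of macrophages, monocytes and neutrophils. It had 5568, 6523 and 7827 normalised reads in RYGB, 5810, 6884 and 7637 in disease, and 3729, 4503 and 5171 in healthy control. RYGB and disease covered nearly the same range, and every library of both lay above every healthy control library. The fold change was 0.60 ± 0.11 for disease against healthy control (adjusted p = 0.0044) and 0.56 ± 0.11 for RYGB against healthy control (adjusted p = 0.00699). RYGB against disease gave -0.05 with a 95% interval of -0.27 to 0.18 (adjusted p = 0.842), an interval that leaves out the falls measured for Mrc1, Clec10a and Gpnmb. The means were 6555 ± 887 in RYGB, 6747 ± 684 in disease and 4449 ± 506 in healthy control.

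Lyz2 has a near copy, Lyc2, and reads that aligned to several places were not counted to a gene, so its level is uncertain to that extent. The promoters of both are shown because they share a stretch that runs to the last base of both windows. Lyz2 lies at chr7:54797962-54798261 on the minus strand and Lyc2 at chr7:54772759-54773058 on the plus strand of GRCr8, and capitals mark the bases that are the same in both at the 3′ end of the windows.
Lyz2: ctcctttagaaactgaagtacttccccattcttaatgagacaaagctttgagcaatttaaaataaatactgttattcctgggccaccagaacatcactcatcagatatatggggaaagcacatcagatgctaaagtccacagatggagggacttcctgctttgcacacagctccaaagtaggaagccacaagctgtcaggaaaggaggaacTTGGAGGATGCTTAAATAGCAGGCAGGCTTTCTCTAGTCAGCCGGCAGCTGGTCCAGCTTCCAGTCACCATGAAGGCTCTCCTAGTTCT
Lyc2: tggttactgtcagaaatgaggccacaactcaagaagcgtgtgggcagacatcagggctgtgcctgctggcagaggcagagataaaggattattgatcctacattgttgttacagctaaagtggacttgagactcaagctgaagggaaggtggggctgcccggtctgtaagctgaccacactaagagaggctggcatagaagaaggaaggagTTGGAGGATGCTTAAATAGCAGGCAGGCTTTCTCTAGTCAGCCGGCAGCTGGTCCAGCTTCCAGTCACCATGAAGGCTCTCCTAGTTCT
The shared run spans at least 89 bases, 39 before and 50 from the start site, and of the other 211 positions 45 hold the same base. Whether it goes on past the windows is not shown. Lyc2 itself had 1.10 to 4.45 normalised reads in RYGB, 0 to 9.97 in disease and 0 to 3.36 in healthy control.

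Cd68, a lysosomal membrane glycoprotein and general macrophage marker, had 77.6, 128 and 152 normalised reads in RYGB, 78.1, 118 and 183 in disease, and 46.6, 104 and 123 in healthy control. The 3 groups overlapped widely. Its fold changes were 0.06 ± 0.24 for RYGB against disease (adjusted p = 0.907), 0.32 for disease against healthy control (0.67) and 0.38 for RYGB against healthy control (0.313). The first had a 95% interval of -0.44 to 0.56.

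Adgre1, the rat counterpart of the mouse macrophage antigen F4/80, had 233, 379 and 430 normalised reads in RYGB, 234, 279 and 365 in disease, and 182, 416 and 530 in healthy control. Healthy control was the most spread group, with an SD that was 33.1% of the mean. No difference was called, at 0.33 ± 0.21 for RYGB against disease (adjusted p = 0.385) and -0.33 ± 0.21 for disease against healthy control (0.617). RYGB replicate 2 lay far below the other RYGB libraries, which held 378 to 430. RYGB against healthy control gave 0.00 with a 95% interval of -0.44 to 0.44.

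Cd163, the scavenger receptor for haemoglobin bound to haptoglobin, was close to the limit of detection, with 0 to 20 counted reads per library. Its levels were 1.501 to 16.5 normalised reads in RYGB, 0 to 15.3 in disease and 5.39 to 17.2 in healthy control. Disease replicate 1 had 0 reads, and 3 reads there, the number that a count of 0 allows, are worth 7.47 normalised reads for counting error alone. The 95% interval of its fold change was -1.26 to 1.29 for RYGB against disease, wider than for any of the other 9 genes, and no difference was detectable at this depth.

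**Figure D2:**
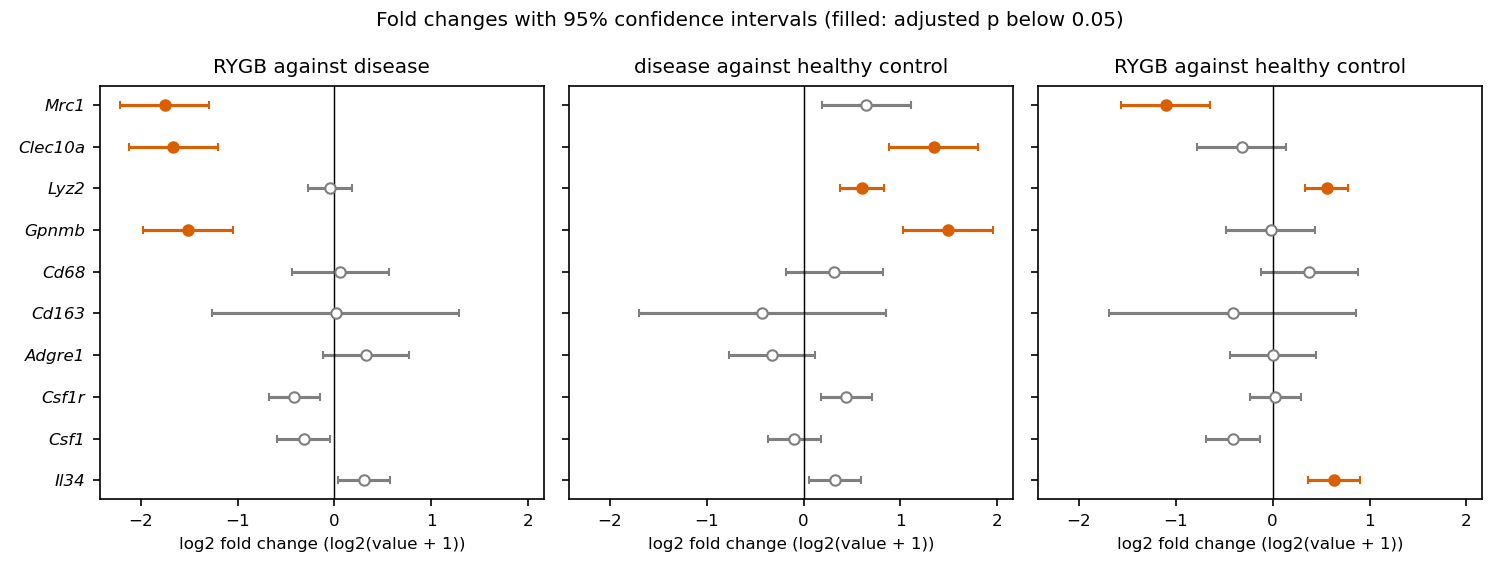
The 10 genes run down the page and each panel is 1 comparison, with the log2 fold change (on log2(value + 1)) on the horizontal axis, points for the fitted value and bars for the 95% confidence interval; filled points have an adjusted p below 0.05. Mrc1, Clec10a and Gpnmb are filled and left of 0 in RYGB against disease, and Lyz2 is filled and right of 0 in both comparisons with healthy control.

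Csf1r, the receptor on which macrophages depend, had 611, 670 and 767 normalised reads in RYGB, 738, 925 and 1107 in disease, and 481, 694 and 768 in healthy control. Most disease libraries stood above the other groups, with an overlap at the low end of disease, and RYGB and healthy control overlapped. The difference of -0.42 ± 0.13 between RYGB and disease had an unadjusted p of 0.00354 and an adjusted p of 0.0679, so it was not called. Disease against healthy control, at 0.44 ± 0.13, was not called either (adjusted p = 0.0934).

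Both differences in Csf1r depended on single libraries and on the tool. RYGB against disease was called without disease replicate 6 (adjusted p = 0.0468), without healthy control replicate 4 (0.0305), without both shallowest libraries (0.03), after quantile normalisation (0.0475) and by DESeq2 (0.0185). Its adjusted p ran between 0.0185 and 0.158 over all alternatives. Disease against healthy control was called without disease replicate 6 (0.0411) and by DESeq2 (0.0238), in a range of 0.0238 to 0.232. RYGB (683 ± 76.7) and healthy control (674 ± 106) gave 0.03, with a 95% interval of -0.23 to 0.29 (adjusted p = 0.903).

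The mean of Il34 was highest in RYGB and that of Csf1 lowest. Il34 had 682, 802 and 808 normalised reads in RYGB, 479, 650 and 770 in disease, and 356, 529 and 572 in healthy control. Every RYGB library lay above every healthy control library, while disease overlapped with both. RYGB against healthy control gave 0.63 ± 0.13 (adjusted p = 0.00975), with means of 773 ± 51.6 and 504 ± 80.3. The differences between RYGB and disease (0.31 ± 0.13, adjusted p = 0.177) and between disease and healthy control (0.32 ± 0.13, 0.31) were of like size and not called.

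Csf1 had 283, 324 and 364 normalised reads in RYGB, 314, 389 and 486 in disease, and 323, 441 and 523 in healthy control. RYGB held the lowest libraries and overlapped with both other groups. RYGB against healthy control, at -0.41 ± 0.13, had an adjusted p of 0.0715, and it was called by DESeq2 (0.0244), after quantile normalisation (0.0479) and when these groups were fitted alone (0.04885), in a range of 0.0244 to 0.185. RYGB against disease gave -0.32 ± 0.13 (adjusted p = 0.178) and disease against healthy control -0.09 ± 0.13 (0.848). Beside the 3 non-overlapping cases in RYGB against healthy control, Lyz2 and Il34 higher and Mrc1 lower, 3.22% of all genes tested did not overlap, 1.82% higher and 1.4% lower.

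Setting each marker against Csf1r in the same library, a measure chosen after the data were seen, asks whether a marker moved more than the receptor. It uses the same libraries and values as the fits above, so its tests are not separate support for those calls. Within groups Csf1r moved with sequencing depth (r = 0.648 with log2 reads in genes), and the part of depth in these differences was not tested. Mrc1 minus Csf1r on the log2 scale was -3.48 ± 0.16 in RYGB, -2.14 ± 0.67 in disease and -2.35 ± 0.54 in healthy control. RYGB lay below both other groups in every library, by -1.34 against disease and -1.13 against healthy control (exact two-sided permutation test, p = 0.002165 each, the smallest that 6 libraries against 6 allow; adjusted p = 0.01136 over 21 tests). Clec10a minus Csf1r was lower in RYGB than in disease by -1.25 (exact permutation test, adjusted p = 0.01515), and Gpnmb by -1.10 (0.01515). In disease against healthy control Clec10a was higher by 0.90 (0.02525) and Gpnmb by 1.05 (0.01705), and Mrc1 differed by 0.21 (0.6531).

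Lyz2 and Adgre1 were higher relative to Csf1r in RYGB than in disease. Lyz2 minus Csf1r was 3.26 ± 0.13 in RYGB, 2.89 ± 0.09 in disease and 2.73 ± 0.14 in healthy control. It was higher in RYGB than in disease by 0.37 and than in healthy control by 0.53, with no overlap in either case (exact permutation test, adjusted p = 0.01136 each), and disease against healthy control gave 0.16 (0.0947). For RYGB against disease the 2 terms were -0.05 for Lyz2 and -0.42 for Csf1r, neither of them called. Adgre1 minus Csf1r was -0.93 ± 0.31 in RYGB, -1.67 ± 0.34 in disease and -0.90 ± 0.41 in healthy control. Its difference was 0.74 for RYGB against disease (exact permutation test, adjusted p = 0.01705) and -0.77 for disease against healthy control (0.02727), so Adgre1 stood lowest in disease relative to the receptor. For Cd68 the difference of 0.48 between RYGB and disease had an adjusted p of 0.07851 in the exact permutation test, and Cd163 was called in no comparison.

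Replicate numbers were taken to pair disease with healthy control libraries, although the sample titles state no pairing. It was inferred from these data and is uncertain: same-numbered libraries correlated at 0.13 to 0.32, and unlike numbers reached 0.39. The 7 differences against Csf1r were therefore also tested over the 6 pairs, a test chosen after the data were seen. Lyz2 and Gpnmb were higher in disease in 6 of 6 pairs and Adgre1 in 0 of 6 (exact sign-flip permutation test over 64 arrangements, p = 0.03125 each, the smallest it allows; adjusted p = 0.0729 over 7 tests). Clec10a was higher in 5 of 6 pairs (exact permutation p = 0.0625, adjusted p = 0.109). Clec10a, Gpnmb and Adgre1, called for disease against healthy control without pairing, were thus not called in the paired test, and Lyz2 was called in neither. A p of 0.03125 adjusted over 7 tests falls below 0.05 only where most of the 7 genes reach it. The paired test therefore cannot decide whether the calls of Gpnmb and Adgre1 hold.

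**Figure D3:**
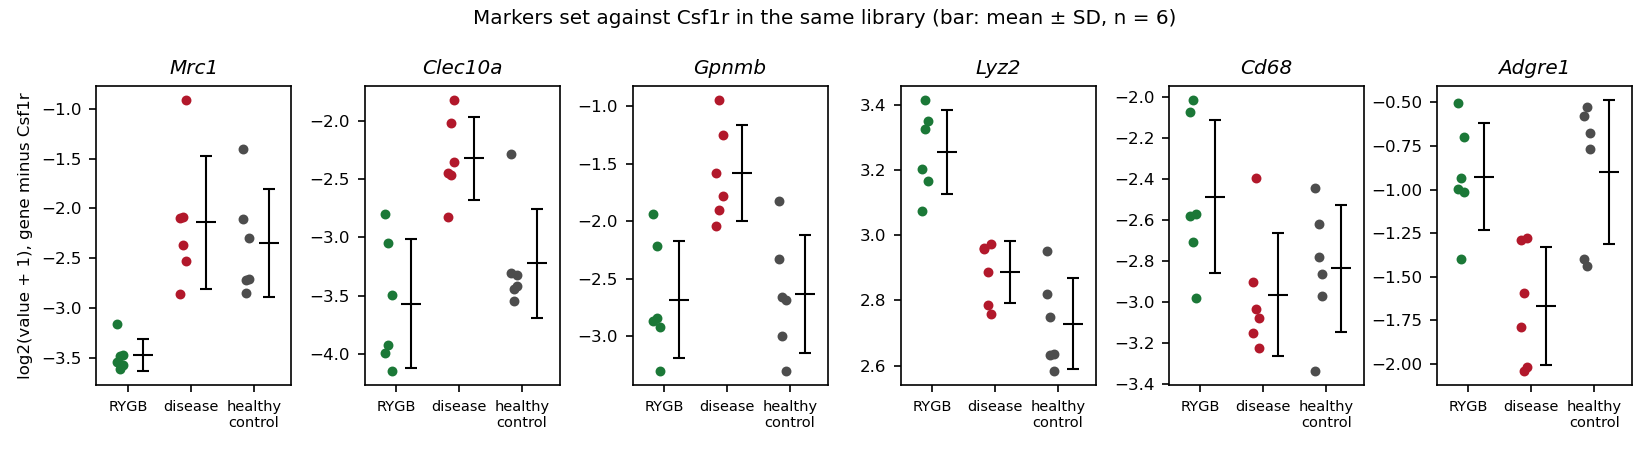
Each panel gives log2(value + 1) of 1 marker minus that of Csf1r on the vertical axis (not from 0), with points for the 6 libraries of RYGB, disease and healthy control and bars for the mean ± SD. Mrc1 is lowest in RYGB, Clec10a and Gpnmb are highest in disease, Lyz2 is highest in RYGB, and Adgre1 is lowest in disease.

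The 10 genes were then compared within groups, through the deviation of each library from its group mean. Of 45 pairs 28 had a positive Pearson r over the 18 libraries, 10 had an unadjusted permutation p below 0.05 and 1 was called after Benjamini-Hochberg adjustment over the 45. This was Lyz2 with Csf1r (r = 0.821, permutation p = 9e-05, adjusted p = 0.00405; Spearman's rho = 0.81, p = 0.00017, adjusted p = 0.00765). Without the 2 libraries whose Lyz2 deviation lay farthest from the median r was 0.784. These were picked by Lyz2 alone, so libraries that lay far out in Csf1r could stay in. Within groups r was 0.752 in RYGB, 0.955 in disease and 0.845 in healthy control. The deviations of both genes also moved with sequencing depth: r with log2 reads in genes was 0.648 for Csf1r and 0.45 for Lyz2, given as a description, and the part of depth in their relation was not tested.

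Pairs among the 3 genes that fell in RYGB had a positive r and were not called. Clec10a with Gpnmb had r = 0.69 (permutation adjusted p = 0.0572; rho = 0.657, adjusted p = 0.0735), Clec10a with Mrc1 0.557 (0.087; rho = 0.474, 0.18) and Mrc1 with Gpnmb 0.40 (0.342; rho = 0.42, 0.291). Without the 2 farthest libraries, picked by Clec10a in the first pair and by Mrc1 in the others, these r were 0.556, 0.423 and 0.281. In the pairs that follow, the gene named first picked them. Mrc1 with Cd163, which was called in no comparison, had r = 0.698 (permutation adjusted p = 0.0569, and 0.068 for rho = 0.633) and 0.413 without the 2 farthest. Cd163 had 0 to 20 reads per library, and disease replicate 1, with 0, was also the lowest disease library in Mrc1. Lyz2 with Cd68 had r = 0.663 (permutation adjusted p = 0.0569; rho = 0.62, 0.0735) and 0.481 without the 2 farthest. Cd68 with Csf1r had r = 0.691 (permutation adjusted p = 0.0686, and 0.1796 for rho = 0.546) and 0.484 without the 2 farthest. Cd68 with Csf1 was called by rho alone (0.732, permutation adjusted p = 0.0365), with r = 0.553 (0.159).

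**Figure D4:**
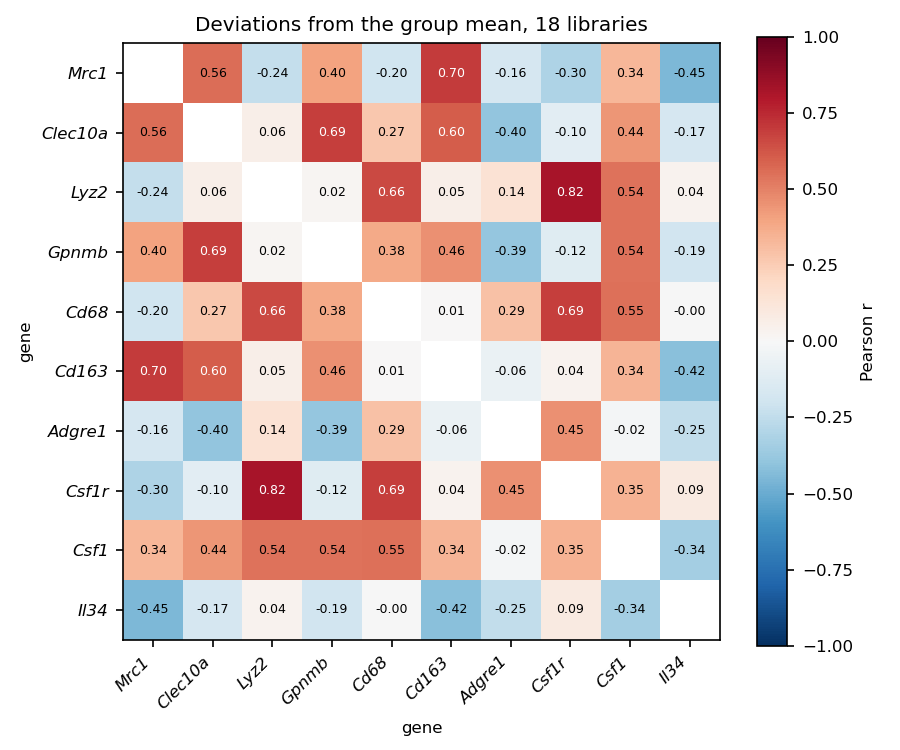
The 10 genes run along both axes, and colour and printed number give Pearson's r between the deviations of log2(value + 1) from the group mean over the 18 libraries. The darkest pair is Lyz2 with Csf1r at 0.82, followed by Mrc1 with Cd163 at 0.70, and the lowest is Mrc1 with Il34 at -0.45.

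Over all 18 libraries, group differences included, the genes whose levels ran most like each of the 10 were sought among 9400 genes with a mean of at least 100 normalised reads. These r are descriptions across libraries that share groups and depth. Closest to Clec10a were Clu (r = 0.925), a secreted chaperone that rises in injured tubules, Gpnmb (0.925) and Spp1 (0.914), which encodes osteopontin. Spp1 (0.915) and Clu (0.897) were also closest to Gpnmb after Clec10a. For Mrc1 they were Adamts1 (0.899), a secreted protease, Clec10a (0.818) and Ubd (0.813). With the group means removed, the r of Clec10a was 0.637 with Clu, 0.69 with Gpnmb and 0.749 with Spp1. That of Mrc1 was 0.588 with Adamts1, 0.557 with Clec10a and 0.197 with Ubd.

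Csf1r ran most like Laptm5 (r = 0.883), a lysosomal protein of blood cells, and the lysosomal proteases Ctsd (0.865) and Ctsz (0.86). Cd68 ran most like Fcer1g (0.836), the shared signalling chain of Fc receptors, Limd2 (0.835) and Emp3 (0.83). Lyz2 was followed by Tmem176a (0.867), the cell cycle inhibitor Cdkn1a (0.856) and the lipid droplet protein Plin3 (0.844). Adgre1 was followed by Cmip, Arfgef3 and Insig1 (0.854, 0.854 and 0.851), none of them in the phagocyte lists used here. Il34 ran most like Poldip3 (0.912), Grwd1 (0.895) and Pold2 (0.891), Csf1 like Afap1l1 (0.854), Thsd1 (0.831) and Grk5 (0.797), and Cd163, at its low counts, like Piga (0.785).

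Of 23 other genes of mononuclear phagocytes tested, 1 fell in RYGB against disease and 1 rose in RYGB against healthy control, shares near the background of all genes tested. In disease against healthy control limma and edgeR called 0 and DESeq2 called 2. There 8 had an unadjusted p below 0.05 by limma, all higher, beside 11.1% of all genes tested. Of the 23, 19 had a positive and 4 a negative fold change in that comparison. In RYGB against disease 2 were higher and 5 lower at this unadjusted p, beside 20.7% of all genes tested. In RYGB against healthy control 5 were higher and 4 lower, beside 26.2%. The median fold changes were -0.17, 0.18 and 0.06 in RYGB against disease, disease against healthy control and RYGB against healthy control. Fcgr2b, the inhibitory Fc receptor of myeloid cells and B cells, had 6.56, 7.46 and 9.92 normalised reads in RYGB, 12.5, 28.2 and 43.1 in disease, and 11.7, 13.7 and 26.3 in healthy control, and fell in RYGB against disease (-1.59 ± 0.29, adjusted p = 0.00368). Slc11a1, a metal transporter of phagosomes, had 108, 192 and 210 in RYGB, 98.4, 122 and 167 in disease, and 51.5, 77.4 and 103 in healthy control, and rose in RYGB against healthy control (1.19 ± 0.19, adjusted p = 0.00148).

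Of 14 tested genes of colony stimulating factor signalling, 1 was called, Ptprz1, another receptor for Il34, which was lower in RYGB than in healthy control (-1.03 ± 0.29, adjusted p = 0.0455); its call ended under 11 of 27 alternatives. Of 9 alternatively activated macrophage genes, Ccl24, an eosinophil-attracting chemokine, rose in RYGB against disease (0.99 ± 0.21, adjusted p = 0.0107) and against healthy control (1.00 ± 0.21, 0.011). Its means were 140 ± 20.2 in RYGB, 70.5 ± 13.5 in disease and 72.8 ± 29.1 in healthy control, so it was high where Mrc1 of the same textbook class was low. Stab1, a scavenger receptor, and Hmox1, haem oxygenase, fell in RYGB against disease, and both calls ended under 3 of 28 alternatives, with adjusted p up to 0.0614 and 0.0657. The call of Hmox1 in RYGB against healthy control ended under 11 of 28. Hmox1 had 42.7 to 84.1 normalised reads in RYGB and 165 to 2332 in disease, with a disease median of 216. Disease replicates 2 and 4 held 1558 and 2332. Of 10 inflammatory macrophage genes 1 was called, Irf5, higher in RYGB than in healthy control (0.67 ± 0.17, adjusted p = 0.0353), and this call ended under 10 of 28.

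Of the lysosomal and lipid macrophage genes, those called in RYGB against disease and in disease against healthy control went the same way as Clec10a and Gpnmb. Of 22 tested, 4 fell in RYGB against disease and the same 4, Spp1, Trem2, Ctsz and Ctsd, rose in disease against healthy control. Over all genes tested, 2.1% were called lower and 0.579% higher in these comparisons. They share the disease libraries, and Trem2 entered the test mainly through its disease levels. Spp1, which tubule cells also make, averaged 4800 ± 933 normalised reads in RYGB, 22335 ± 8282 in disease and 3766 ± 864 in healthy control. Trem2, a lipid-sensing receptor of macrophages, had 4.41, 5.12 and 7.65 in RYGB, 7.47, 22.4 and 53.9 in disease, and 7.36, 7.71 and 10.96 in healthy control. It fell in RYGB against disease (-1.85 ± 0.33, adjusted p = 0.00353), and its rise in disease against healthy control (1.35 ± 0.33, 0.0426) ended under 12 of 22 alternatives. Trem2 passed the filter on low values only through disease libraries and healthy control replicate 1 (10.96). No RYGB library reached the minimum of the filter. Trem2 was thus tested because it was high in disease, so its calls are given as a description alone. Trem2 was fitted in 21 of 28 alternatives for RYGB against disease and in 22 of 29 for disease against healthy control. In the others it did not pass the filter, so its calls were not tested there.

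Ctsz averaged 340 ± 49.7 in RYGB, 483 ± 65.0 in disease and 323 ± 25.5 in healthy control, a rise in disease of 0.57 ± 0.12 (adjusted p = 0.0119). Its fall in RYGB against disease (-0.51 ± 0.12, 0.0183) ended without RYGB replicate 1 or disease replicate 2, with adjusted p of 0.0503 to 0.0537. Ctsd, named after its values were seen, was called in both comparisons, and these calls ended under 16 of 28 and 22 of 29 alternatives. The remaining call was Lpl, also named after its values were seen, lower in RYGB than in healthy control, which ended under 2 of 28.

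Chemokines and adhesion molecules that recruit monocytes split. Of 8 tested, Ccl5 rose in RYGB against disease (1.48 ± 0.25, adjusted p = 0.00224), with 63.2, 72.7 and 85.1 normalised reads in RYGB, 10.2, 31.9 and 37.4 in disease, and 46.6, 50.4 and 68.1 in healthy control. Ccl2, the chief ligand for monocytes that carry Ccr2, fell in RYGB against disease (-1.29 ± 0.33, 0.0341), a call that ended under 6 of 28 alternatives. Its means were 52.0 ± 17.1 in RYGB, 128 ± 38.2 in disease and 88.8 ± 45.5 in healthy control. Ccl5 was also lower in disease than in healthy control (-1.03 ± 0.25, 0.0374), which ended under 9 of 29.

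Markers of other cells moved beside the macrophage genes, and their part in the results above was not tested. Of 9 fibroblast and pericyte markers 4 fell in RYGB against disease (Pdgfra, Col1a1, Col3a1 and Dcn), and the summed level of the list was 5696 to 8603 in RYGB, 10405 to 13693 in disease and 6717 to 13495 in healthy control. Of 12 tubular injury genes 5 fell in RYGB against disease (Havcr1, Clu, Vim, Fn1 and Cp) and 5 rose in disease against healthy control, with sums of 16876 to 18460, 20841 to 29835 and 13833 to 19100 in RYGB, disease and healthy control. Havcr1, a protein of injured proximal tubule cells, averaged 42.3 ± 30.3 in RYGB, 1348 ± 963 in disease and 85.4 ± 104 in healthy control. The sums of both lists were lower in every RYGB library than in any disease library, as was that of the T and B lymphocyte markers. Over all genes tested, 2.1% were called lower in RYGB than in disease and 0.579% higher in disease than in healthy control. No such share was computed for sums of lists. In RYGB against healthy control 4 fibroblast and pericyte markers fell: Pdgfra and Dcn, whose calls held under all 28 alternatives, and Col3a1 and Dpt, whose calls ended under 8 and 10. Cdkn1a, an inhibitor of the cell cycle, and Krt8, an epithelial keratin, rose there among the tubular injury genes. Cdkn1a averaged 409 ± 189.5 in RYGB, 447 ± 76.0 in disease and 124 ± 38.1 in healthy control, and its call (1.62 ± 0.28, adjusted p = 0.00322) held under all 28 alternatives. Krt8 averaged 6857 ± 545 in RYGB, 7043 ± 2091 in disease and 4080 ± 1682 in healthy control; its call in RYGB ended under 8 of 28 alternatives and in disease under 19 of 29. Sox9, a transcription factor of regenerating tubules, averaged 356 ± 196 in RYGB, 164 ± 62.2 in disease and 286 ± 83.3 in healthy control and was not called (RYGB against disease 1.02 ± 0.34, adjusted p = 0.0994 by limma), while DESeq2 called 1 tubular injury gene higher there. The calls in RYGB against disease ended under 7 of 28 alternatives for Pdgfra and for Dcn, 13 for Fn1 and 6 for Cp.

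Of 8 T and B lymphocyte markers 1 rose (Nkg7) and 1 fell (Cd4) in RYGB against disease. The sum of the list was 497 to 594 in RYGB, 633 to 913 in disease and 397 to 735 in healthy control, most of it Cd4 in each group. Rat macrophages also carry Cd4. These calls ended under 13 of 27 alternatives for Nkg7 and 19 of 28 for Cd4. Gzma, a protease of cytotoxic lymphocytes, fell in disease against healthy control, a call that ended under 6 of 28. It passed the filter on low values mainly through healthy control libraries, where it was highest. Of 4 dendritic cell markers 1 fell in RYGB against disease, Itgae, with means of 100.4 ± 12.6 in RYGB, 156 ± 12.4 in disease and 115 ± 11.6 in healthy control (-0.64 ± 0.12, adjusted p = 0.00501). The dendritic list as a whole summed to 15355 to 23327, 12581 to 25148 and 10492 to 19968 in the same groups, nearly all of it Cd74.

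Neutrophils, which also make lysozyme, had 4 tested markers, of which S100a8, S100a9 and Fcnb rose and Mmp9 fell in disease against healthy control; the calls of Fcnb and Mmp9 ended under 12 of 28 and 10 of 29 alternatives. Whether neutrophils had a part in the level of Lyz2 was not tested. S100a8 averaged 24.5 ± 20.6 in RYGB, 44.4 ± 49.0 in disease and 3.31 ± 5.02 in healthy control. Disease against healthy control gave 3.63 ± 0.66 (limma adjusted p = 0.00446). S100a8 passed the filter on low values mainly through disease and RYGB libraries, with a healthy control median of 1.57, so its calls are a description. Without disease replicate 2 the disease mean was 24.5 ± 5.07, and without healthy control replicate 1 the healthy control mean was 1.34 ± 1.57 (SD, n = 5 each); the call in disease held under all 28 alternatives. In RYGB against healthy control S100a8 rose (2.83 ± 0.66, 0.0215), a call that ended under 5 of 27 alternatives, and Mmp9 fell (-2.60 ± 0.37, 0.000716). The list summed to 108 to 232 in RYGB, 143 to 545 in disease and 155 to 698 in healthy control, most of it Mmp9 in healthy control. Without Mmp9 the sums were 44.8 to 195 in RYGB, 76.4 to 424 in disease and 14.1 to 61.4 in healthy control. Camp was at 0 in all 6 healthy control libraries.

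Of 3 adipocyte markers Adipoq fell in RYGB against disease (363 ± 137 in RYGB, 622 ± 148 in disease and 468 ± 85.7 in healthy control), a call that ended under 8 of 28 alternatives; Plin1 was at 0 in every disease and healthy control library. Cidec, a lipid droplet protein, averaged 414 ± 346 in RYGB, 133 ± 99.8 in disease and 271 ± 106 in healthy control, and its difference of 1.51 ± 0.48 between RYGB and disease was not called (adjusted p = 0.083), while DESeq2 called 1 adipocyte marker higher there. Pck1, which proximal tubules also make, rose in RYGB against healthy control (ended under 10 of 28) and carried nearly all of the list's sum of 186057 to 468590, 79012 to 311790 and 67979 to 298890 in RYGB, disease and healthy control. Of 11 endothelial markers Vwf and Cdh5 were called, both lower in RYGB than in healthy control and Vwf also lower in disease. The call of Cdh5 ended under 9 of 28 alternatives and that of Vwf in disease under 10 of 29. In RYGB against disease limma, edgeR and DESeq2 called 0, with 0 at an unadjusted p below 0.05 by limma, beside 20.7% of all genes tested. The endothelial sum was 16164 to 18699 in RYGB, 14653 to 20653 in disease and 16025 to 22593 in healthy control. Of the mast cell markers 1 was tested, Kit, which was not called, and Mcpt1 had 0 to 1.501 normalised reads in RYGB, 0 to 18.5 in disease and 0 to 0.84 in healthy control. The mast cell list, nearly all of it Kit, summed to 755 to 1409 in RYGB, 547 to 1471 in disease and 642 to 1602 in healthy control, and Ms4a2 was at 0 in all 6 RYGB libraries.

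Markers of the epithelium around the macrophages were read as well. Of 11 proximal tubule markers limma and edgeR called 0 in each comparison. In RYGB against disease DESeq2 called 2 and 5 had an unadjusted p below 0.05 by limma, all higher, beside 20.7% of all genes tested. Their sum was 230086 to 382213 in RYGB, 148713 to 334104 in disease and 152951 to 291217 in healthy control. Of 10 other nephron markers Umod, a protein of the thick ascending limb, rose and Aqp3, a water channel of the collecting duct, fell in RYGB against disease, calls that ended under 9 and 20 of 28 alternatives, and Umod fell in disease against healthy control (-1.36 ± 0.28, adjusted p = 0.0129), which ended after quantile normalisation (0.161).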

How the data were processed

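RNA of frozen rat kidney cortex was sequenced in 18 libraries, 6 per group, from a stranded mRNA kit, per the labels' protocols. Groups and replicate numbers come from the sample titles. The labels give neither sex, age nor batch and do not say that each library is a separate animal, so a p-value measures the spread among libraries, which may be technical.

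Each deposited value is a signal: the authors had divided a gene's read count by the size factor of the library (0.401 to 2.02). HTSeq 0.6.1p1, DESeq2, MultiQC 0.9, FastQC 0.11.2 and the build Rnor 5.0 are named, per the submitters' processing notes. Aligner and annotation: not given in the sources used here. Of 18423 rows, 3 name no gene and were left out: they hold reads outside genes (27.6 to 43.2%), aligned to several places (13.5 to 18.1%) or ambiguous (0.069 to 0.114%). In every library 99.9946% or more of the gene values were whole multiples of 1 read, within 0.01 reads. No 2 libraries of a group were alike within sampling noise.

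limma 3.58.1 under R 4.3.3, with its trend option, was fitted on log2(value + 1) for the 13988 genes that reached 10 in at least 6 libraries, with 3 group means and 15 residual degrees of freedom. The p-values are two-sided and adjusted by Benjamini-Hochberg over all genes tested, with calls at an adjusted p below 0.05. Fold changes on this scale understate those of low genes. edgeR 4.0.16 and DESeq2 1.42.0 on recovered reads were alternatives, beside other pseudocounts (0.5 and 10), filters (none, or a minimum of 50), quantile normalisation, the compared groups fitted alone, a replicate block and leaving out each library. The fits were tested on simulated counts. Pairs of genes were tested with 100000 permutations (NumPy 2.4.6, SciPy 1.17.1), and differences against Csf1r with all 924 arrangements of 6 against 6 libraries and, paired, with all 64 sign patterns. Promoter sequences are RefSeq's, on GRCr8, not the build of the counts.

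The 10 genes and the 16 other lists were chosen with earlier results of these data known. All 10 are described. Of the other lists the text names up to 3 called genes by adjusted p. In a list without a call it names the 2 with the highest mean. Beyond this rule it names Ctsd, Lpl, Fcnb, Col1a1, Dpt, Vim, Fn1, Cp, Krt8, Sox9 and Cidec, chosen after their values were seen. So were Cd74, Camp, Plin1, Ms4a2, Mitf, Tfeb and Tfe3. Of 232 listed symbols 199 were in the table. Replicate numbers recur in each group. Deviations of same-numbered libraries correlated at 0.13 to 0.32 between disease and healthy control (6 of 6 pairs over 0.1). They correlated at -0.56 to 0.31 between RYGB and disease and at -0.31 to 0.01 between RYGB and healthy control. Libraries of unlike numbers ranged from -0.54 to 0.39 between disease and healthy control, and 3 of 6 disease libraries correlated best with their own number. The numbers were taken to pair libraries for disease and healthy control alone, and these values leave that pairing uncertain.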

Additional observations from a re-analysis of the deposited data

Results flagged for a closer look

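In groups of 6, a library is singled out here where its gap to the nearest of the others, divided by the range of the group, is above Dixon's 95% critical value. Chance does this in about 1 in 20 groups. A group with 2 high libraries, such as Hmox1 in disease, can escape this rule. Among 30 groups of the 10 genes this happened in 2. Clec10a had 98.1 normalised reads in healthy control replicate 4, the shallowest library of its group, against 64.2 to 69.8 in the other 5 (ratio 0.8357). Adgre1 had 233 in RYGB replicate 2, against 378 to 430 in the others (0.7358).

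Over all 135 groups searched there were 18. In healthy control replicate 1, Hmox1 had 2605 against 110 to 337 in the others (0.9092), Trem2 10.96 against 7.36 to 8.22 (0.7612), S100a8 13.2 against 0 to 3.59 (0.7267), Fcgr2b 26.3 against 11.7 to 16.8 (0.6516) and Irf5, the lowest, 161 against 222 to 253 (0.664). In healthy control replicate 4, Col3a1 had 881 against 3067 to 3753 (0.7611), Vwf 83.4 against 220.2 to 297 (0.6413) and Pck1 298100 against 67220 to 142300 (0.6747). In disease replicate 2, S100a8 had 144 against 16.97 to 29.3 (0.9031), S100a9 213 against 39.0 to 89.7 (0.7082) and Cd4 653 against 499 to 544 (0.7059).

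Disease replicate 5 had 229.7 normalised reads of Mmp9 against 66.2 to 120.5 in the other disease libraries (0.6677). RYGB replicate 2 had 143 of Mmp9 against 32.3 to 63.4 (0.7184) and 4493 of Aqp3 against 1853 to 2544 (0.7382). Mcpt1 was at 0 in every library of its group but 1 in RYGB (replicate 2, 1.501 normalised reads) and in healthy control (replicate 5, 0.84), which gives a ratio of 1 in both.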

How the results depend on the processing

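The 9 calls among the 10 genes held under all 28 alternatives per comparison (29 for disease against healthy control, where the replicate block was also fitted to the compared groups alone). With the replicate block 3 of the 10 genes were called in each comparison, as without it, and 408, 158 and 496 genes in all were called in RYGB against disease, disease against healthy control and RYGB against healthy control, beside 552, 225 and 621 without it. DESeq2 called 1098, 410 and 1602 and edgeR 629, 224 and 846. DESeq2 called 5 of the 10 in disease against healthy control. A minimum of 50 left 143 calls there. RYGB against healthy control gave 1442 when fitted alone and 1493 without the 2 shallowest libraries, an alternative added after seeing the data. Leaving out 1 library gave 259 to 817, 124 to 310 and 203 to 1501 calls. The count moved by over 1.5 times without RYGB replicates 1, 2, 4, 5 or 6 or disease replicates 1 or 2 in RYGB against disease, without disease replicates 3 or 4 or healthy control replicates 2, 3 or 6 in disease against healthy control, and without any RYGB or healthy control library or disease replicate 6 in RYGB against healthy control; the cause was not tested. Called pairs numbered 4 with a pseudocount of 10 and 2 after quantile normalisation, beside 1.

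Of the 30 fold changes 6 changed sign, none of them called. Cd163 in RYGB against disease was -0.068 with a pseudocount of 10, -0.17 by edgeR, -0.19 by DESeq2, -0.24 after quantile normalisation and -0.55 without the 2 shallowest libraries (-0.55 to 0.32 leaving out 1). Cd163 in disease against healthy control was 0.11, 0.064 and 0.33 by edgeR, by DESeq2 and without the 2 shallowest (-0.66 to 0.14). Cd68 in RYGB against disease was -0.018 without the 2 shallowest (-0.049 to 0.20). In RYGB against healthy control Adgre1 was -0.0017, -0.053, -0.058, -0.014 and -0.19 with a pseudocount of 10, by edgeR, by DESeq2, after quantile normalisation and without the 2 shallowest (-0.19 to 0.12). Gpnmb was 0.0034, 0.015 and 0.046 by edgeR, after quantile normalisation and without the 2 shallowest (-0.15 to 0.0695), and Csf1r -0.066 without the 2 shallowest (-0.066 to 0.069). Between 31 and 372 reads stand behind each Clec10a value and between 0 and 20 behind each Cd163 value, which limits what can be seen in Cd163.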
